A study of Arabidopsis thaliana with 18 samples.

Results

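Salicylate-linked defence genes were measured in Arabidopsis thaliana seedlings of the mutant stch4-1 and of wild type (WT) after 4 h at 4 °C. The account covers 10 genes, taken by their identifiers from a table of 33557: the pathogenesis-related genes PR1, PR2 and PR5, the receptor genes NPR1, NPR3 and NPR4, NIMIN1 and NIMIN2, whose products bind NPR1, and the immune regulators EDS1 and PAD4. All 10 had a row in the table. The mutant and WT both have the Col-0 background; seedlings were 14 days old, came from 1/2 MS medium with sucrose, and gave 3 libraries per genotype. The labels give neither the lesion of the stch4-1 allele nor whether a group's samples are separate cultures; if they are not, the p-values reflect technical spread only. The series names 18 samples at 0, 4 and 24 h of cold; the 12 taken at 0 and 24 h were not analysed here, so nothing below is a response to cold.

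Salicylic acid is the hormone that plants make against pathogens that feed on living tissue. EDS1 and PAD4 form a lipase-like pair that resistance receptors signal through and that promotes salicylate accumulation. NPR1 binds salicylate and acts as a co-activator with TGA transcription factors at target promoters such as that of PR1, while NPR3 and NPR4 also bind salicylate and act as co-repressors. NIMIN proteins attach to NPR1 and damp its output, and PR proteins are the secreted products by which the pathway is usually scored. Long cold is known to raise salicylate and PR transcripts in this species.

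After 4 h of cold, 7 of the 10 genes were called higher in stch4-1 than in WT and 0 were called lower, at an adjusted p under 0.05 in limma. Over all 19289 genes tested, 18.5% were called higher and 14.0% lower. Over both directions 32.6% were called. PR1 stood at 2.87 times its WT level, NIMIN2 at 1.80 times, PR2 at 1.69 times and NPR3 at 1.36 times, as ratios of mean FPKM, which counts fragments scaled to transcript length and library size. NPR4, EDS1 and NPR1 were called higher by small amounts, and PR5, NIMIN1 and PAD4 did not pass. The median log2 fold change of the 10 was 0.36, against 0.01 over all genes tested. The 10 were chosen with earlier results of these data known, so counts and medians set against all genes are descriptions only. No library of one genotype reached the range of the other in 9 of the 10 genes, all higher in stch4-1, where 25.1% of all tested genes separated in that direction, 22.7% in the other and 47.8% in either. All 10 passed the filter on low values, which asked for 1 FPKM in 3 of 6 libraries.

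**Figure D1:**
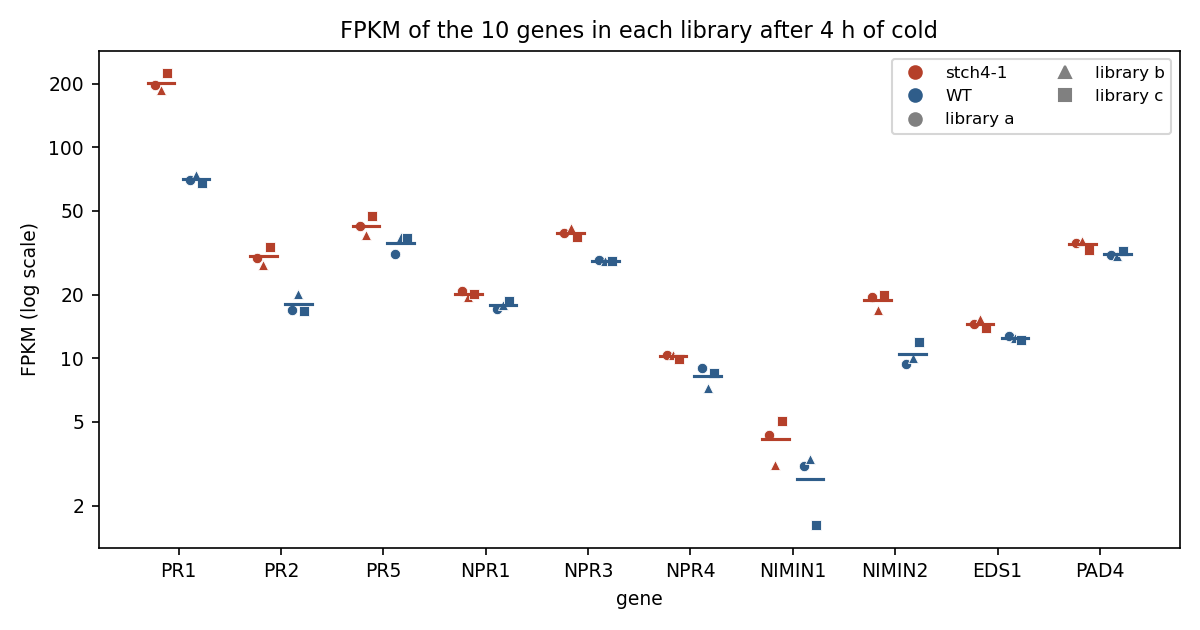
FPKM of the 10 genes on a log axis, 1 point per library (circle a, triangle b, square c) and a bar at the mean of each genotype, with stch4-1 left of WT. PR1 lies between 186 and 225 FPKM in stch4-1 and between 67.5 and 74.3 FPKM in WT, and only NIMIN1 has genotypes whose libraries overlap.

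TGA and WRKY factors act on this pathway at DNA upstream of genes, not only close to the start. Of the 9 genes searched, the upstream stretches of the 3 with a TGA-type word within 250 bases are shown. These 3 were picked for holding that word. They were read from the RefSeq genome and annotation of assembly TAIR10.1, whereas the deposited values were made on TAIR10. Each runs 5′ to 3′ on the gene's own strand and ends at the base before the annotated start. Capitals mark the words TGACG (the core bound by TGA factors) and TTGAC (the core of the W-box bound by WRKY factors), on either strand, so that CGTCA and GTCAA are the same words on the other strand. NIMIN2 is chr3:9471040-9471289, minus strand; NPR3 is chr5:18228518-18228767, plus strand; NPR4 is chr4:10698812-10699061, minus strand.
NIMIN2: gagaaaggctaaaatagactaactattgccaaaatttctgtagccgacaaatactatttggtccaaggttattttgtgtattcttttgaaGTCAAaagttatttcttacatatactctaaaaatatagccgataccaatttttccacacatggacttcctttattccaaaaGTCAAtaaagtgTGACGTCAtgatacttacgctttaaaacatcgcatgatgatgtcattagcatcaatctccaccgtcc
NPR3: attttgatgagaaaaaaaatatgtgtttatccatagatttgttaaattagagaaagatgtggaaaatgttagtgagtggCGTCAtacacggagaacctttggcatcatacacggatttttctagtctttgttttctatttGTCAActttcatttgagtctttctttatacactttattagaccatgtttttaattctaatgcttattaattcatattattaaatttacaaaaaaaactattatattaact
NPR4: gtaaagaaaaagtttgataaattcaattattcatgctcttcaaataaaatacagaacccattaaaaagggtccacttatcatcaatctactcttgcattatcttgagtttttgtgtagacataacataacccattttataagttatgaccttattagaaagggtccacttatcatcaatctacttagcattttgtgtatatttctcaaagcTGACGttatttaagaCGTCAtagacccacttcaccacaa

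Within 250 bases of the start, TGACG was found in 3 of the 9 genes searched (NPR3, NPR4 and NIMIN2; PR1 was not searched) and in 18.6% of 27443 protein-coding genes. TTGAC was found there in 4 of the 9 (PR5, NPR3, NIMIN2 and EDS1) and in 44.9% of all. In NIMIN2 the 2 TGACG words lie on opposite strands and overlap each other, at bases 67 and 64 before the start. In NPR4 they also lie on opposite strands, at bases 39 and 24. In a window of 1000 bases, chosen after seeing the data, TGACG was found in 6 of the 9 and in 54.1% of all genes, and TTGAC in 7 of the 9 and in 88.1%. NPR3 held 7 TGACG words in that window, and NPR1 held neither word. TTGACG contains both words; such overlaps occurred in PR2 and NIMIN2. A match is a description of these letters only.

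The mutated gene checks the labels. REIL2, also called STCH4, had 5.65, 5.44 and 5.80 FPKM in the stch4-1 libraries, against 31.2, 34.1 and 36.0 FPKM in WT (limma log2 fold change -2.39, adjusted p = 1.7e-06). Table columns do not carry the replicate numbers of the titles, so libraries are lettered a to c from left to right. Summed FPKM lay between 947218 and 987059 in stch4-1 and between 878394 and 919309 in WT, and relative depth, read from the steps of low values, ranged from 1 to 1.45. Spearman's rho over genes lay at 0.986 to 0.988 for libraries of the same genotype and at 0.983 to 0.985 for libraries of different genotypes. In whole seedlings fewer cells of a type and less RNA per cell cannot be told apart. Summed FPKM of 14 root markers was 1637 to 1681 in stch4-1 and 1852 to 1896 in WT. PYK10 made up most of that sum, at 1357 to 1398 FPKM in stch4-1 and 1547 to 1574 FPKM in WT. Of the 14 root markers 6 were called lower, 0 higher and 8 not called, and 6 had a positive log2 fold change. Over all tested genes 14% were called lower and 18.5% higher. Summed FPKM of 5 leaf markers was 27790 to 31610 in stch4-1 and 26310 to 30290 in WT, with 1 called higher (LHCB3) and 0 lower. The 3 flower markers summed to at most 1.91 FPKM in stch4-1 and 0.906 FPKM in WT, and none was at 0 throughout. The part of tissue make-up in the results below was not tested.

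Gene positions below are on TAIR10.1. The PR genes are the outputs of the pathway, and PR1 and PR2 were called higher in stch4-1. PR1 (AT2G14610, chr2:6241640-6242541) encodes a small secreted protein of the CAP family that is the usual marker of systemic acquired resistance. PR1 had 198, 186 and 225 FPKM in stch4-1, against 70.3, 74.3 and 67.5 FPKM in WT. The lowest stch4-1 library stood far above the highest WT library. PR1 averaged 203 ± 19.6 FPKM in stch4-1 and 70.7 ± 3.40 FPKM in WT (SD, n = 3 each), a limma log2 fold change of 1.50 (95% confidence interval 1.34 to 1.66, adjusted p = 1.1e-05). By log2 fold change PR1 ranked 21st from the top among the 19289 tested genes, at percentile 99.9.

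PR2 (AT3G57260, chr3:21188397-21189967), a beta-1,3-glucanase that cuts fungal wall glucan, had 29.9, 27.8 and 33.7 FPKM in stch4-1, against 16.9, 20.3 and 16.9 FPKM in WT. Its libraries did not overlap between genotypes, and WT b stood above WT a and c. The mean was 30.5 ± 3.03 FPKM in stch4-1 and 18.0 ± 1.95 FPKM in WT (limma log2 fold change 0.73, 95% confidence interval 0.52 to 0.93, adjusted p = 0.000916). PR5 (AT1G75040, chr1:28177670-28179022), a thaumatin-like protein, had 42.3, 38.3 and 47.2 FPKM in stch4-1, against 31.2, 37.8 and 37.2 FPKM in WT. The lowest stch4-1 library lay just above the highest WT library, and the difference did not pass (limma log2 fold change 0.26, 95% confidence interval 0.05 to 0.48, adjusted p = 0.0637). PR5 passed when stch4-1 b was left out (0.33, adjusted p = 0.0383) and stood at 0.15 (adjusted p = 0.241) once the trend with transcript length was removed.

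Because FPKM is scaled to length, levels of different genes can be set side by side within a library. The plain ratio of PR1 to PR5 was 4.68, 4.86 and 4.76 in stch4-1 and 2.26, 1.97 and 1.82 in WT. The ratio of PR2 to PR5 was 0.706, 0.725 and 0.715 in stch4-1 and 0.544, 0.537 and 0.453 in WT. Both ratios were almost constant among stch4-1 libraries, although PR1, PR2 and PR5 themselves each varied by a coefficient of variation of 9.66% to 10.4% there. As log2 ratios of FPKM + 1, PR1 to PR5 averaged 2.23 in stch4-1 and 0.98 in WT, and PR2 to PR5 averaged -0.47 in stch4-1 and -0.93 in WT. These ratios are descriptions with no test.

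**Figure D2:**
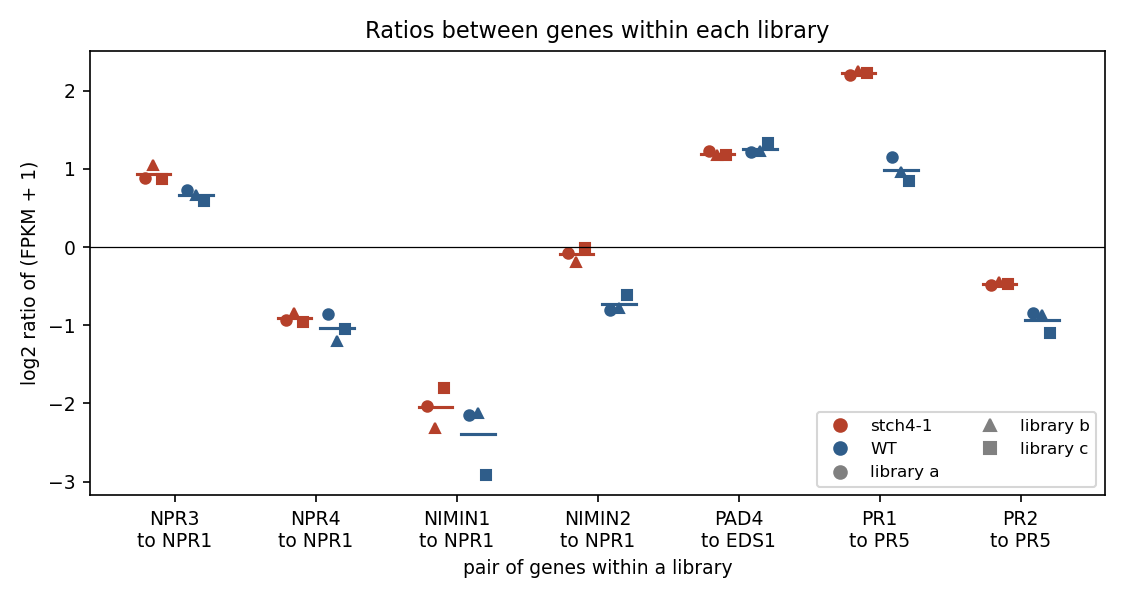
Log2 ratio of FPKM + 1 between pairs of the genes, 1 point per library and a bar at the mean, with stch4-1 left of WT. PR1 to PR5 lies at 2.20 to 2.25 in stch4-1 and at 0.84 to 1.15 in WT, while PAD4 to EDS1 lies at 1.17 to 1.23 in stch4-1 and at 1.21 to 1.33 in WT, ranges that overlap.

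NPR1, NPR3 and NPR4 were all called higher, and NPR3 was the one whose call stood under every alternative run. NPR3 (AT5G45110, chr5:18228768-18231588), a salicylate-binding co-repressor, had 39.1, 41.4 and 37.7 FPKM in stch4-1, against 29.1, 29.0 and 28.8 FPKM in WT. WT libraries were nearly equal and each stch4-1 library stood above them. The limma log2 fold change of NPR3 was 0.43 (95% confidence interval 0.33 to 0.53, adjusted p = 0.000422). NPR4 (AT4G19660, chr4:10696266-10698811), the other co-repressor, had 10.4, 10.4 and 9.95 FPKM in stch4-1, against 9.01, 7.24 and 8.53 FPKM in WT. Its libraries did not overlap, and WT b was the lowest. The limma log2 fold change of NPR4 was 0.28 (95% confidence interval 0.10 to 0.47, adjusted p = 0.0293), and NPR4 was called without WT a (0.34, adjusted p = 0.0234) but not without any other single library (0.20 to 0.31, adjusted p from 0.0512 to 0.0823); 0.20 is the value without WT b.

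NPR1 (AT1G64280, chr1:23852748-23855658), the co-activator, had 20.8, 19.5 and 20.2 FPKM in stch4-1, against 17.2, 18.0 and 18.8 FPKM in WT. The genotypes did not overlap but lay close, with means of 20.2 ± 0.620 FPKM in stch4-1 and 18.0 ± 0.812 FPKM in WT. The limma log2 fold change was 0.16 (95% confidence interval 0.04 to 0.28, adjusted p = 0.0472). That call was lost on leaving out any 1 of the 6 libraries (0.13 to 0.19, adjusted p from 0.0515 to 0.139), and with no filter, without the eBayes trend, or under quantile normalization (adjusted p from 0.0563 to 0.0689). In the annotation NPR1 overlaps a pseudogene, AT1G64270, and a noncoding RNA, AT1G08667, both on the other strand. How strand was handled is not given in the sources used here, so reads of NPR1 and these cannot be told apart. AT1G64270 lay between 1.23 and 2.12 FPKM, and AT1G08667 was not analysed here.

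Within libraries, the plain ratio of NPR3 to NPR1 was 1.88, 2.12 and 1.86 in stch4-1 and 1.70, 1.62 and 1.53 in WT, without overlap. The ratio of NPR4 to NPR1 was 0.499, 0.534 and 0.493 in stch4-1 and 0.525, 0.403 and 0.454 in WT, and these overlapped. Coding sequences of NPR3 and NPR4 were 78.3% identical over 1706 aligned bases, and each was 59.0% to 59.1% identical to that of NPR1.

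NIMIN genes encode small proteins that bind NPR1, and NIMIN2 was called higher while NIMIN1 did not pass. NIMIN2 (AT3G25882, chr3:9470357-9471039), known as an early salicylate-induced member, had 19.6, 16.9 and 20.1 FPKM in stch4-1, against 9.41, 10.04 and 11.98 FPKM in WT. All stch4-1 libraries stood clear of WT. The limma log2 fold change of NIMIN2 was 0.79 (95% confidence interval 0.57 to 1.02, adjusted p = 0.000799), the second largest of the 10, and it stood at 0.58 (adjusted p = 0.0032) once the length trend was removed. The plain ratio of NIMIN2 to NPR1 was 0.943, 0.867 and 0.993 in stch4-1 and 0.549, 0.559 and 0.638 in WT, without overlap. NIMIN2 and NPR1 differ in exon length (683 and 2614 bases), and these ratios were not corrected for the length trend. With that trend removed the log2 fold changes were 0.58 for NIMIN2 and 0.21 for NPR1, against 0.79 and 0.16 before.

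NIMIN1 (AT1G02450, chr1:497917-498539), which lowers PR1 induction when overexpressed, was the least abundant of the 10 in both genotypes. It had 4.32, 3.13 and 5.06 FPKM in stch4-1, against 3.10, 3.34 and 1.62 FPKM in WT. Values overlapped, and the coefficient of variation was 23.4% in stch4-1 and 34.7% in WT, the widest of the 10. The limma log2 fold change was 0.50, with a 95% confidence interval of 0.01 to 1.00 (adjusted p = 0.108), an interval that also holds the NIMIN2 value of 0.79. Without WT c the NIMIN1 value was 0.27 (adjusted p = 0.266), and with the length trend removed it was also 0.27 (adjusted p = 0.374). The ratio of NIMIN1 to NPR1 ran from 0.160 to 0.250 in stch4-1 and from 0.0862 to 0.186 in WT, and these ranges overlapped. These ratios too were not corrected for the length trend.

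EDS1 and PAD4 differed by small amounts. EDS1 (AT3G48090, chr3:17755329-17758147) had 14.6, 15.4 and 14.0 FPKM in stch4-1, against 12.8, 12.5 and 12.2 FPKM in WT. The groups were separate, by little (limma log2 fold change 0.21, 95% confidence interval 0.08 to 0.34, adjusted p = 0.0215). EDS1 lost its call on omission of stch4-1 a, stch4-1 b, WT b or WT c (0.18 to 0.21, adjusted p from 0.0537 to 0.0711). PAD4 (AT3G52430, chr3:19431095-19434450) had 35.4, 36.0 and 32.8 FPKM in stch4-1, against 31.0, 30.6 and 32.2 FPKM in WT. Its lowest stch4-1 library, c, lay just above WT c, and PAD4 did not pass (limma log2 fold change 0.15, 95% confidence interval 0.03 to 0.26, adjusted p = 0.0517). It passed without stch4-1 c (0.19, adjusted p = 0.0236), under median scaling (0.15, adjusted p = 0.0465) and with the length trend removed (0.18, adjusted p = 0.0273).

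The plain ratio of PAD4 to EDS1 was 2.43, 2.34 and 2.35 in stch4-1 and 2.42, 2.45 and 2.63 in WT, which overlapped. EDS1B, the neighbouring copy of EDS1, had 4.45, 3.84 and 4.16 FPKM in stch4-1, against 3.75, 3.55 and 4.10 FPKM in WT. These overlapped and EDS1B did not pass (limma log2 fold change 0.10, 95% confidence interval -0.10 to 0.30, adjusted p = 0.395). Coding sequences of EDS1 and EDS1B were 84.0% identical over 1859 aligned bases. The sources used here do not give how reads that match both were counted.

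**Figure D3:**
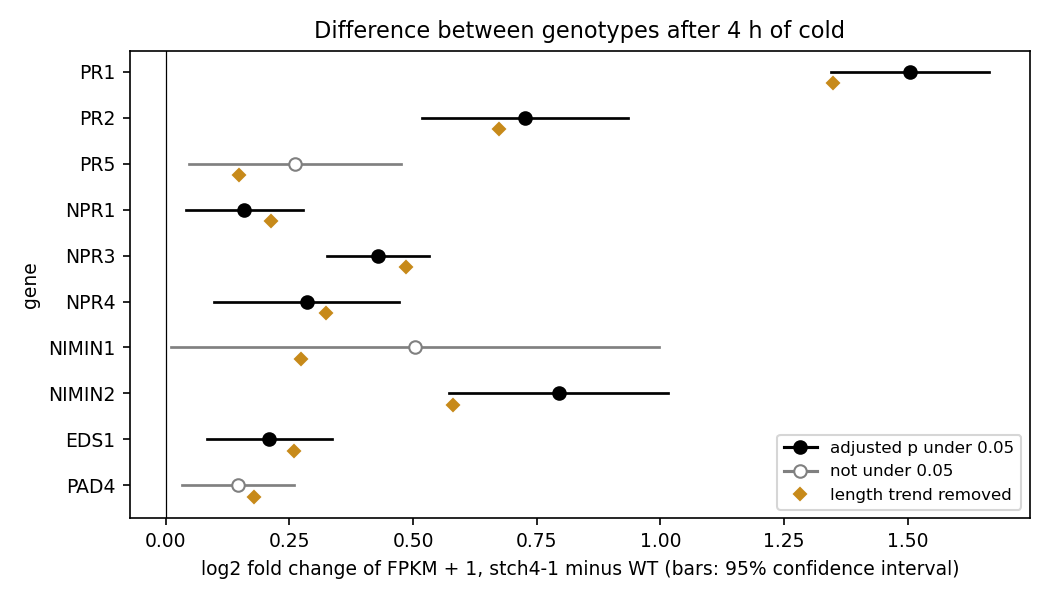
Log2 fold change of FPKM + 1 (stch4-1 minus WT) with its 95% confidence interval; filled points have an adjusted p under 0.05, and diamonds give the value with the length trend removed. All 10 points lie above 0, PR1 furthest at 1.50, and removing the length trend lowers the 5 short transcripts (PR1, PR2, PR5, NIMIN1 and NIMIN2) and raises the other 5.

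Fold changes were lower in longer transcripts, which touches these genes unequally. Tested genes split into 3 equal classes by exon length had median log2 fold changes of 0.12 (shortest), 0.01 and -0.09 (longest). PR1, PR2, PR5, NIMIN1 and NIMIN2 have exon lengths from 623 to 1477 bases, and PAD4, NPR4, EDS1, NPR1 and NPR3 from 2255 to 2659. With that trend removed PR1 stood at 1.35, PR2 at 0.67, NPR3 at 0.49, NPR4 at 0.32, EDS1 at 0.26 and NPR1 at 0.21. The count called higher was then 8 of 10, PAD4 being the added one, while 14.2% of all tested genes were called higher.

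In level, PR1 was the most abundant of the 10 in both genotypes and NIMIN1 the least. In stch4-1 the order of mean FPKM was PR1, PR5, NPR3, PAD4, PR2, NPR1, NIMIN2, EDS1, NPR4 and NIMIN1. Neighbours in that order whose libraries overlapped were PR5 with NPR3, PAD4 with PR2, and NPR1 with NIMIN2. In WT the order was PR1, PR5, PAD4, NPR3, PR2, NPR1, EDS1, NIMIN2, NPR4 and NIMIN1, with overlap of PR5 with PAD4 and of PR2 with NPR1. NPR3 thus stood above PAD4 in stch4-1 and below it in WT, without overlap in either. NIMIN2 stood above EDS1 in stch4-1 and below it in WT, again without overlap. These orders were not corrected for the length trend, and NIMIN2 (683 bases) is shorter than EDS1 (2551 bases). With that trend removed their log2 fold changes were 0.58 and 0.26, against 0.79 and 0.21 before. By mean FPKM over all libraries the 10 spanned percentiles 17.3 (NIMIN1) to 93.8 (PR1) of the tested genes.

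The genes most like PR1 over the 6 libraries, by distance between mean-centred log2(FPKM + 1) profiles among 14465 other genes averaging at least 5 FPKM, were AT2G43620, AT4G33720 and AT5G42530. AT2G43620, annotated as a chitinase family protein, averaged 34.96 ± 1.94 FPKM in stch4-1 and 12.2 ± 0.146 FPKM in WT (distance 0.145). AT4G33720, a CAP protein like PR1, averaged 145 ± 1.35 FPKM in stch4-1 and 46.5 ± 2.24 FPKM in WT (distance 0.232). AT5G42530, annotated as uncharacterized, averaged 3137 ± 59.7 FPKM in stch4-1 and 1202 ± 130 FPKM in WT (distance 0.316). Nearest to NIMIN1 were MT1B, PYL2 and AT1G31335 at distances 0.291 to 0.340, and none of these passed (limma adjusted p from 0.104 to 0.147). PAD4 had SPX1, AT4G18372 and FKBP15-2 nearest, at distances 0.0390 to 0.0451. The SPX1 value, 0.15, turned to -0.047 under quantile normalization, and the AT4G18372 value, also 0.15, to -0.061 with the length trend removed. These neighbours were picked by likeness over the same 6 libraries. Their genotype differences therefore had to resemble those of PR1, NIMIN1 and PAD4, and are no separate evidence.

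Genes related to the 10 by family or function were read from 6 companion lists, also chosen with earlier results of these data known. The PR-type list goes by protein family and not by response to salicylate. Against each list count below, 18.5% of all tested genes were called higher and 14% lower. Among other PR-type genes, 7 of 12 tested were called higher and 1 lower, and the median log2 fold change was 0.48. The CAP gene AT4G33720 had a limma log2 fold change of 1.62 (adjusted p = 1.7e-06), and BG3, a glucanase gene beside PR2, averaged 3.18 ± 0.378 FPKM in stch4-1 and 0.678 ± 0.210 FPKM in WT (1.32). BG3 was under 1 FPKM in every WT library and passed the filter through stch4-1 alone, so it had to be higher there without overlap. Its value was 2.11 with a pseudocount of 0.1. BG3 is still part of the 7 of 12 and of the median. PR4, a hevein-like protein, averaged 581 ± 83.1 FPKM in stch4-1 and 330 ± 38.4 FPKM in WT. A PR6-type protease inhibitor gene, AT2G38870, averaged 137 ± 14.4 FPKM in stch4-1 and 71.3 ± 5.82 FPKM in WT, and OSM34, an osmotin related to PR5, averaged 355 ± 17.7 FPKM in stch4-1 and 224 ± 10.12 FPKM in WT. AT1G50060, another CAP gene, was the 1 that was lower, with 9.38 ± 0.551 FPKM in stch4-1 and 13.9 ± 1.199 FPKM in WT. PRB1 and the chitinase gene PR3 (CHI-B), named here after their values were seen, complete the 7. PRB1, whose coding sequence was 83.5% identical to that of PR1, had a log2 fold change of 0.51 and was not called without WT c (0.44, adjusted p = 0.0515) or with the length trend removed (adjusted p = 0.0521). PR3 (CHI-B), at 0.45, lost its call on omission of stch4-1 a, stch4-1 c, WT a or WT c (adjusted p from 0.0505 to 0.0891).

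Of 16 partners and relatives of the NPR proteins, 3 were called higher and 4 lower, against 18.5% higher and 14% lower over all tested genes, and the median was -0.13. The 4 became 1 or 2 with any 1 library left out. In those fits 1819 to 2281 of all tested genes were called lower, against 2704 with all libraries. Libraries did not overlap in 7 of the 16, lower in stch4-1, and in 3, higher. Over all tested genes these shares were 22.7% and 25.1%. The counts are small and unsteady, and no conclusion is drawn from them. NIMIN3 averaged 15.0 ± 1.19 FPKM in stch4-1 and 12.2 ± 0.355 FPKM in WT, and the thioredoxins TRXh3 and TRXh5, which reduce NPR1, had limma log2 fold changes of 0.21 and 0.26. With the length trend removed these 3 were no longer called (0.06, 0.08 and 0.09, adjusted p from 0.13 to 0.579), and under quantile normalization TRXh3 (0.02) and TRXh5 (0.11) were not. Lower calls fell on the transcription factors TGA1, at 36.5 ± 0.645 FPKM in stch4-1 and 43.2 ± 0.455 FPKM in WT (-0.24), TGA4 (-0.27) and TGA7 (-0.20), and on CUL3A (-0.17), a ubiquitin ligase scaffold named after its value was seen. With 1 library left out, TGA7 lost its call in each of the 6 fits (adjusted p from 0.0541 to 0.147) and CUL3A in the 5 other than that without WT b. With the length trend removed CUL3A stood at -0.097 (adjusted p = 0.144). TGA4 lost its call when stch4-1 a, WT b or WT c was left out (adjusted p from 0.0507 to 0.057). TGA2 (-0.13), TGA5 (0.04) and TGA6 (-0.21), which overlap in function in systemic acquired resistance, did not pass, nor did NPR2 (-0.05, and 0.020 without WT b).

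Among partners of EDS1 and other resistance signalling genes, 5 of 11 were called higher and 0 lower, with a median of 0.14. NDR1, a membrane protein needed by coiled-coil resistance receptors, averaged 98.8 ± 1.52 FPKM in stch4-1 and 59.6 ± 6.03 FPKM in WT (limma log2 fold change 0.73, adjusted p = 0.000279). The co-chaperone gene SGT1A stood at 0.34, the helper receptor genes NRG1.2 and ADR1-L2 at 0.24 and 0.21, and RAR1 at 0.26. RAR1 was called with all 6 libraries (adjusted p = 0.0442) and in just 1 of the fits with 1 library left out, that without WT b (in the others adjusted p from 0.0621 to 0.107). SAG101, a lipase-like partner of EDS1, had 8.07, 7.96 and 10.3 FPKM in stch4-1, against 9.36, 9.08 and 9.90 FPKM in WT, which overlapped (-0.10, adjusted p = 0.446).

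Salicylate-responsive genes outside the 10 were called higher in 13 of 15 and lower in 1, with a median of 0.72. AED1, a secreted aspartic protease, averaged 61.4 ± 1.64 FPKM in stch4-1 and 25.2 ± 0.807 FPKM in WT, and LURP1 averaged 225 ± 4.67 FPKM in stch4-1 and 96.3 ± 0.680 FPKM in WT. PCC1 averaged 590.2 ± 49.2 FPKM in stch4-1 and 267 ± 0.782 FPKM in WT. The ankyrin protein gene ACD6 (0.97), the wall-associated kinase gene WAK1 (0.94) and the salicylate hydroxylase gene DLO1 (0.80) also rose. Named after their values were seen, AIG1 was the 1 that was lower (-0.35) and NUDX6 the 1 that did not pass (-0.14). AIG1 lost its call on omission of stch4-1 a, stch4-1 c or WT b (adjusted p from 0.0591 to 0.075).

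Of 8 genes of salicylate and N-hydroxypipecolate synthesis, 4 were called higher and 0 lower, with a median of 0.35: FMO1 (0.70) and SARD4 (0.44), which act in N-hydroxypipecolate synthesis, and SARD1 (0.51) and CBP60g (0.50), transcription factors that switch on ICS1. ICS1, the main salicylate synthase gene and named after its value was seen, had 12.1, 11.8 and 11.8 FPKM in stch4-1, against 12.1, 11.0 and 10.6 FPKM in WT, which overlapped (limma log2 fold change 0.07, 95% confidence interval -0.07 to 0.21, adjusted p = 0.394). Among 6 WRKY genes that act with NPR1, 5 were called higher and 0 lower, with a median of 0.75. WRKY70 averaged 70.8 ± 1.15 FPKM in stch4-1 and 39.7 ± 1.08 FPKM in WT; WRKY38 stood at 1.11, WRKY54 at 0.80, WRKY62 at 0.69 and WRKY53 at 0.58. WRKY62 was under 1 FPKM in every WT library and passed the filter through stch4-1 alone, so it too had to be higher there without overlap. Its value was 1.34 with a pseudocount of 0.1. WRKY62 is still part of the 5 of 6 and of the median. WRKY62 was not called without WT c (0.58, adjusted p = 0.0538) and left the test without any 1 stch4-1 library, and the count called higher was then 4. WRKY18, named after its value was seen, did not pass (-0.05).

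**Figure D4:**
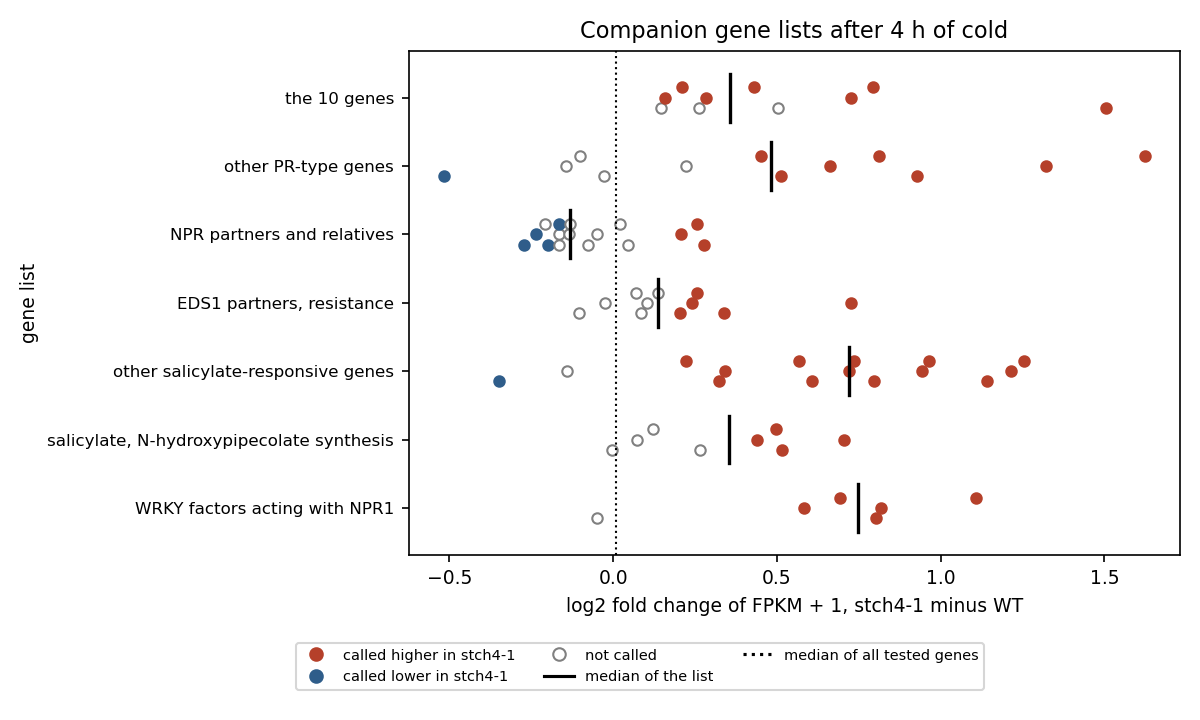
Log2 fold change of FPKM + 1 (stch4-1 minus WT) for each tested gene of the 10 and of the 6 companion lists, coloured by call, with the median of each list as a bar and that of all tested genes (0.01) as a dotted line. Medians run from -0.13 for the NPR partners to 0.75 for the WRKY factors.

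Under 14 alternative settings the log2 fold change of each of the 10 genes remained above 0. PR1 (1.35 to 1.56), PR2 (0.65 to 0.81), NIMIN2 (0.58 to 0.89) and NPR3 (0.38 to 0.49) were called in all 14. EDS1 was called in 10, NPR4 in 7, NPR1 in 4, PAD4 in 3, PR5 in 1 and NIMIN1 in 0. With stch4-1 a, WT b or WT c left out, 4 of the 10 were called higher in place of 7. The share of all tested genes called higher was then 13.6%, 17.1% and 14.5%, against 18.5% with all libraries.

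**Figure D5:**
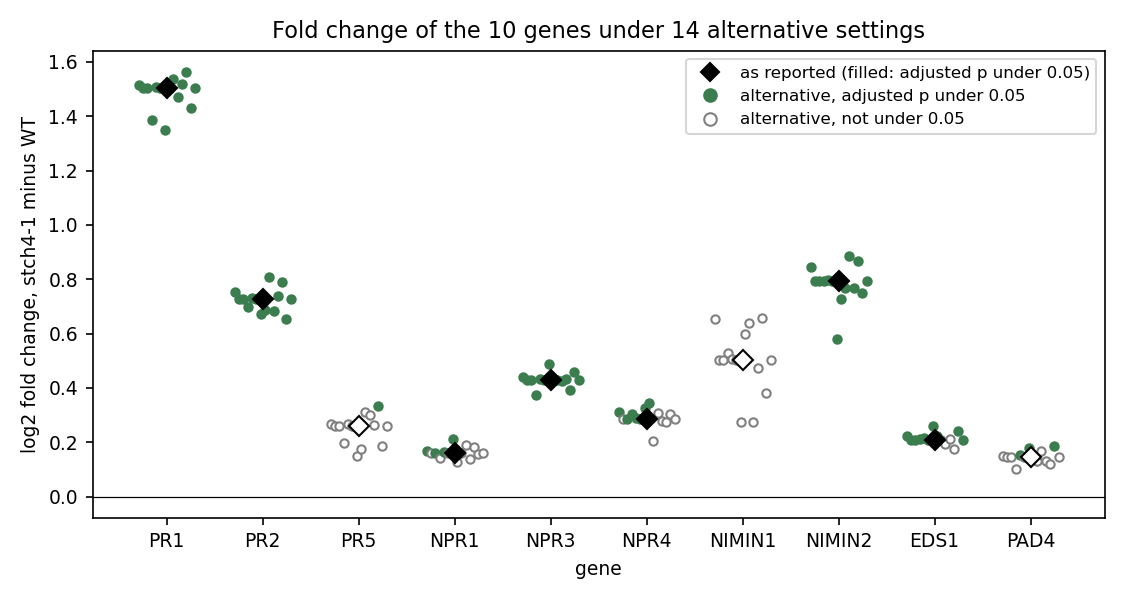
Log2 fold change (stch4-1 minus WT) of the 10 genes as reported (diamond) and under 14 alternative settings (circles), filled where the adjusted p was under 0.05. PR1, PR2, NPR3 and NIMIN2 have filled points throughout, and every point of the 10 genes lies above 0.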

How the data were processed

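The table was deposited by the authors as FPKM, 1 column per library; per the submitters' processing notes reads went through TopHat2 and Cufflinks on TAIR10. Versions, filters, strand setting and handling of multi-mapped reads were not stated there. Total counts are not in the table, so depth is known only in relative terms. Of 33557 identifiers 32810 were found in RefSeq's TAIR10.1 annotation, and 32802 had an exon length.

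Values were taken as log2(FPKM + 1), a scale that understates changes of low genes. Genes at 1 FPKM or more in at least 3 of 6 libraries were fitted with limma 3.58.1 in R 4.3.3 (2 group means, 4 residual degrees of freedom, eBayes with trend, 2-sided, Benjamini-Hochberg over all 19289 genes), and an adjusted p under 0.05 was called. The fit was tested on simulated data. Lists were described by counts and medians with no set test; 2 of 14 PR-type genes were not tested. The sequence upstream of PR1 is not reported here. Joins, sequences and figures used Python 3.11.15, pandas 2.3.3, Biopython 1.88 and matplotlib 3.10.9.

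The 10 genes and all lists were chosen with earlier results of these data known. Named genes are the 10, REIL2, up to 6 called members per list by size, EDS1B, NIMIN3, NPR2, TGA2, TGA5, TGA6 and SAG101, and the 3 profiles nearest PR1, NIMIN1 and PAD4. Alternatives were quantile normalization, median scaling, no eBayes trend, loess removal of the trend with exon length, each library left out, the column number as a block, a pseudocount of 0.1, a filter on the mean, and no filter.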

Additional observations from a re-analysis of the deposited data

How the results depend on the processing

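Depth in fragments is unknown, so no counting error can be set beside these values. NPR1 was not called with no filter (0.16), without the eBayes trend (0.16) or under quantile normalization (0.14). NPR4 was not called with no filter (0.28). PAD4 became called under median scaling (0.15) and with the length trend removed (0.18). With 1 library left out, the log2 fold change ran from 0.13 to 0.19 for NPR1, from 0.20 to 0.34 for NPR4, from 0.18 to 0.24 for EDS1, from 0.12 to 0.19 for PAD4 and from 0.17 to 0.33 for PR5, and the number of the 10 called higher from 4 to 6; the cause was not tested, but such fits hold fewer libraries. Over all tested genes, 13.6% to 17.1% were called higher with 1 library left out. With no filter 24648 genes were tested, 13.2% of them were called higher, and the number of the 10 called higher was 5.

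Among NPR partners, the number called higher was 1 under quantile normalization and 0 with the length trend removed, and the number called lower was 2 with the length trend removed and 1 to 2 with 1 library left out. For other salicylate-responsive genes the number called lower was 0 to 1 with 1 library left out. NPR2 (-0.05) turned to 0.020 without WT b (-0.12 to 0.020 with 1 library left out), SPX1 to -0.047 under quantile normalization and AT4G18372 to -0.061 with the length trend removed. Over all genes the higher share of calls was 56.9%, or 45.7% under quantile normalization (2614 higher and 3108 lower).

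The table's column numbers run from 0 to 2 and the titles from 1 to 3, so the samples share only a number. Deviations of same-numbered libraries correlated at 0.0534, -0.135 and -0.0361. With the replicate block on that number, NPR1 (0.16, adjusted p = 0.0945) and NPR4 (0.28, adjusted p = 0.0531) were not called, 5 of the 10 genes were called higher, and 2 NPR partners lower. The share of all tested genes called higher was then 15.6%.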

Other observations

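The 10 genes ordered the libraries of stch4-1 in a manner that went with transcript length. All 5 with exon lengths of 623 to 1477 bases (NIMIN1, NIMIN2, PR1, PR5 and PR2) were highest in stch4-1 c and lowest in stch4-1 b. Of the 5 with exon lengths of 2255 to 2659 bases, 4 (PAD4, NPR4, EDS1 and NPR3) were highest in stch4-1 b and lowest in stch4-1 c, and NPR1 was highest in stch4-1 a. PR1, for example, had 225 FPKM in stch4-1 c and 186 FPKM in stch4-1 b, whereas NPR3 had 37.7 FPKM in c and 41.4 FPKM in b. In WT the short genes PR1, PR2, PR5 and NIMIN1 were highest in WT b and NIMIN2 in WT c, and the long genes NPR3, NPR4 and EDS1 were highest in WT a and NPR1 and PAD4 in WT c. With tested genes split into 3 equal classes by exon length, the median deviation from the genotype mean on the log2 scale in the shortest class was 0.00538 in stch4-1 a, -0.0105 in stch4-1 b and 0.00475 in stch4-1 c, against -0.0095 in WT a, 0.0115 in WT b and -0.00254 in WT c. In the longest class it was -0.00386 in stch4-1 a, 0.00734 in stch4-1 b and -0.00274 in stch4-1 c, against -0.00575 in WT a, -0.00418 in WT b and 0.0103 in WT c. Over all tested genes stch4-1 b was thus lowest of the mutant libraries in the shortest class and highest in the longest. In size, these medians lay only between -0.0105 and 0.00734 in stch4-1. Coefficients of variation of the 10 genes there ran from 2.47% (NPR4) to 23.4% (NIMIN1), a far larger spread. The likeness described here is therefore one of order and not of size. The short genes and PAD4, NPR4, EDS1 and NPR3 had it in the same places, but NPR1 did not. In both classes stch4-1 a and c differed by little. WT b was highest in the shortest class, as in PR1, PR5 and NIMIN1. WT c was highest in the longest, as in NPR1 and PAD4 but unlike in NPR3, NPR4 and EDS1. PR2, at 1477 bases, falls in the middle class, with -0.00246 in stch4-1 b (lowest) and 0.00775 in WT b (highest). The order of libraries in the 10 genes was noticed after the values were seen and was not tested.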
